A study of Mus musculus with 8 samples.

Results

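Homeobox genes encode transcription factors that share a DNA-binding fold, the homeodomain, and give cells their regional and organ identity. The Hox genes lie in the clusters A to D, and their order along each cluster follows the body axis, with low paralog numbers used toward the head and high numbers toward the tail. Retinoic acid (RA) is a classical regulator of Hox genes. Some TALE proteins, among them Pbx and Meis, bind DNA together with Hox proteins. In the spleen, Tlx1, Nkx2-5, Nkx3-2 and Nkx2-3 are known for their part in forming the organ and its stroma.

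The members described here were taken by gene symbol alone, with a fixed pattern of family names that covers the Hox and TALE genes and other homeobox families. Of the 12589 rows of the expression table, 69 matched, and the mouse annotation GENCODE M21 holds 124 genes with such symbols. The cells were mSSC-YFP, a stromal line derived from mouse spleen that expresses a yellow fluorescent protein. In RNA-seq, 4 cultures received the vehicle DMSO and 4 received BMS493, an inverse agonist of the RA receptors, for 48 h. All 8 cultures stem from 1 cell line, so they carry no information on the spread between animals. Each gene has 1 value here, the authors' mean log2 normalized expression over all 8 cultures, in which treated and untreated cultures count alike. Values of single cultures were not used here, so no spread between cultures, no depth per library and no comparison of BMS493 with DMSO is given. A level below is therefore a description with no error of its own, and whether members next to each other in an ordering differ could not be judged.

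Linear values of the table summed to 989369 over all rows, and the level is read as log2 CPM, read counts scaled to a common library total. To compare genes of unlike length, the log2 of the length of the longest annotated transcript in kb was subtracted, which gives a level per kb. The median over all genes was 4.99 without length and 3.28 per kb. Of 12 marker genes of spleen stroma and fibroblasts, 11 had a row, and 10 of these lay above the median per kb. The marker below it was Pdgfra, at 2.47 per kb. Col1a1 was the highest gene of the table at 13.29 (log2, without length), followed among these markers by Col1a2 at 12.47 and Vim at 11.78. None of 7 blood cell markers had a row under the symbol searched, and of 4 endothelial markers Pecam1 was listed at 0.47 and Kdr at 2.83. Markers of other tissues did appear. Msln, a mesothelial marker, stood at 9.59 and Cdh1, an epithelial cadherin, at 8.03, whereas Krt8 was listed at 1.55, Krt18 at 0.31, Upk3b at 4.79 and Wt1 at 4.64. Their part in the levels below was not tested.

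The members differ in the part of the homeodomain that reads DNA. The residue at position 50, in the recognition helix, is known to help choose the DNA bases next to the core site. In the longest coding sequence of each gene, the stretch coding for tryptophan, phenylalanine, any residue, asparagine, any residue and arginine was searched. It occurred 1 time in 57 of the 69 members and 3 times in Zfhx2, Zfhx3 and Zfhx4, which carry several homeodomains. It was not found in the other 9, among them Satb1, Adnp, Homez, Zeb1, Zeb2, Zhx1, Zhx2 and Zhx3. The stretches printed here, 24 bases each on the coding strand, represent the groups that the later results compare. They are exonic coding sequence of GENCODE M21 transcripts, in Hoxb9 coding bases 694 to 717 of 750 and in Nkx2-3 bases 574 to 597 of 1086. The capitals mark the codon of position 50.
Hoxb9: tggtttCAGaaccggcggatgaaa
Nkx2-3: tggttcCAGaatcgcaggtacaag
Tlx1: tggttcCAGaaccggaggacgaaa
Prrx1: tggtttCAGaaccgaagagccaag
Meis2: tggtttATCaatgccagaagaaga
Tgif1: tggttcATCaacgcccgccgcagg
Irx1: tggttcGCCaatgcgcgccggcgc
Cux1: tggttcCATaattacaggtctcgg
All 25 Hox members carried a glutamine codon at this position, as did the 8 members of the NK-like class, Lhx6, Lhx9, Prrx1 and Prrx2. A lysine codon was found in Six4 and Six5, a histidine codon in Cux1 and an alanine codon in Hmbox1. Within the TALE class Pbx2, Pbx3 and Pbx4 had glycine, the 3 Irx genes alanine, and the 7 Meis, Pknox and Tgif genes isoleucine. Each of the 3 stretches in Zfhx2, Zfhx3 and Zfhx4 also carried glutamine. The 37 members with glutamine in their only stretch, these Zfhx genes left out, spanned levels from -1.32 to 6.01 per kb, with a median of 0.99. The 7 with isoleucine had a median of 3.03. Of the 37, 25 were Hox genes, and the 7 were all Meis, Pknox or Tgif genes. Residue and class thus cannot be told apart in these medians. A short core of tyrosine, proline, tryptophan and methionine, by which many Hox proteins bind Pbx, was encoded in 11 of the 25 Hox members. Only these 4 residues in exact order were searched, so the count does not tell which other Hox members lack a core that binds Pbx.

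As a group, the members lay low in the table. Only 17 of 69 were above the median of all genes without length, or 24.6% (exact Clopper-Pearson 95% interval 15.1 to 36.5, for counting error only), and 15 of 69 per kb. The interval treats the 69 members as independent draws, although they are all the rows that matched the pattern. The median of the members was 1.65 per kb, against 3.28 for all genes. In all, 11 of the 69 members had a mean log2 level under 1, a larger share than the 856 of 12589 rows in the whole table. Hoxb9 was the highest member at 6.01 per kb (percentile 91.6 of all genes), and Nkx2-3 followed at 5.45 (percentile 87.0). The other members were closely spaced. Between neighbours in the order per kb the median gap was 0.07, and the largest was 0.83, between Nkx2-3 and Tgif1.

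**Figure D1:**
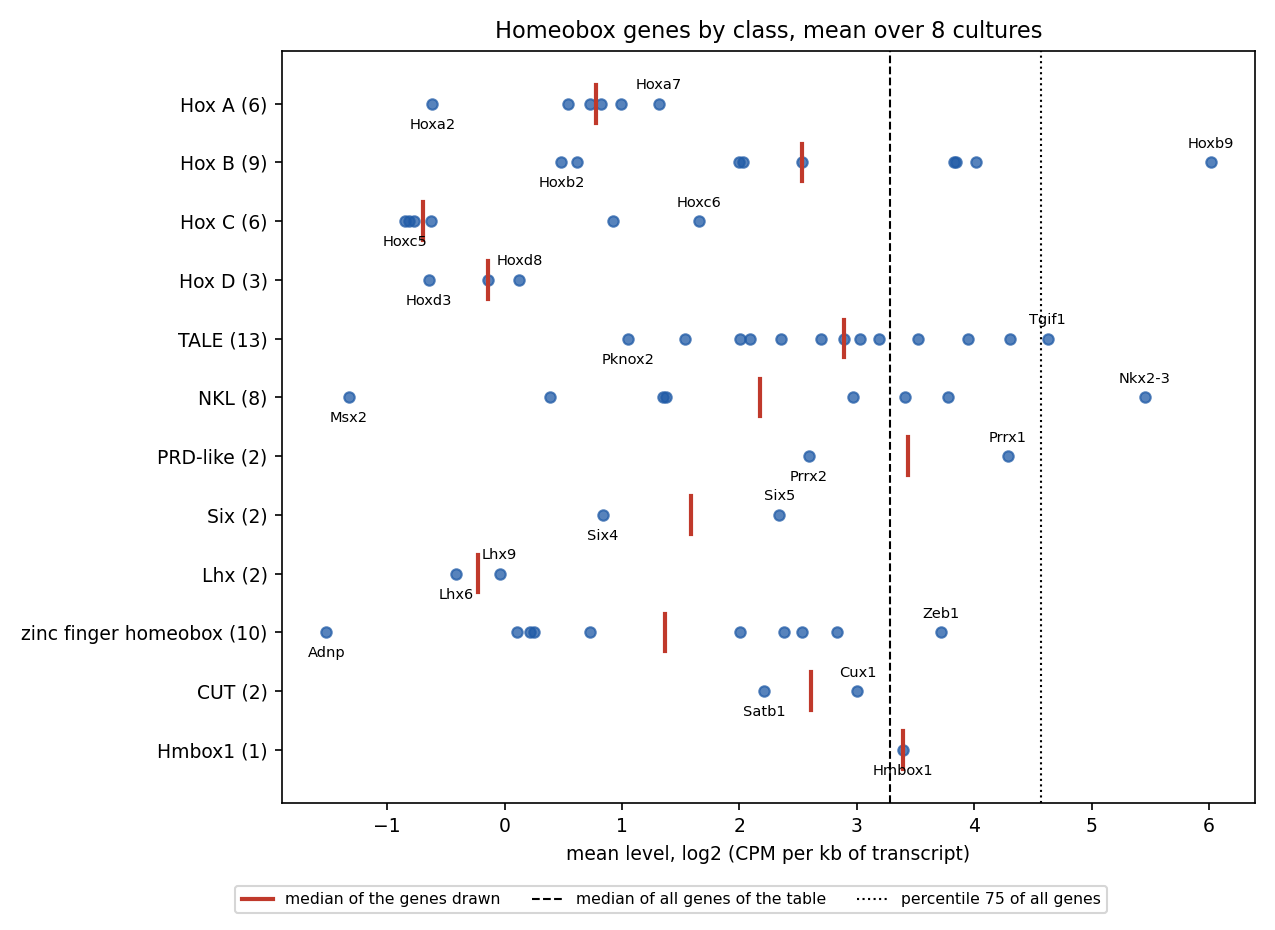
Mean level of 64 of the 69 homeobox genes on the x axis, as log2 of CPM per kb of the longest transcript, by class on the y axis with the number of genes drawn in brackets. Each point is 1 gene averaged over 8 cultures, red bars are medians of the points drawn, and the names mark the lowest and highest of them; most points lie left of the dashed line, the median of all genes at 3.28, and only Hoxb9, Nkx2-3 and Tgif1 pass percentile 75 of all genes at 4.57.

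Among the Hox genes, cluster B stood out in level. Of the 39 annotated Hox genes 25 had a row: 7 of 11 in cluster A, 9 of 10 in cluster B, 6 of 9 in cluster C and 3 of 9 in cluster D. Hox genes without a row were not analysed here, and nothing is drawn from them. The median per kb was 2.53 in cluster B, 0.82 in cluster A, -0.14 in cluster D and -0.70 in cluster C. Summed on the linear scale per kb, cluster B made up 84.7% of the level of all 25 genes, cluster A 8.52%, cluster C 4.98% and cluster D 1.77%.

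Hoxb9, a posterior Hox gene on chromosome 11 from 96271457 to 96276595 (GRCm38, plus strand), alone made up 43.4% of that sum. Its level was 7.38 without length, which corresponds to 166 CPM. Toward the head end of the cluster came Hoxb8 at 3.83 per kb, Hoxb7 at 4.01 and Hoxb6 at 3.85. These 4 genes were the only Hox members above the median of all genes per kb, and without length only Hoxb9 and Hoxb8 were. Lower levels were read for Hoxb5 at 2.03 per kb, Hoxb4 at 2.53 and Hoxb3 at 2.00. Hoxb2 (0.48 per kb), the most anterior gene of the cluster with a row, was 46.2-fold below Hoxb9. Hoxb1, the most anterior gene of this cluster in the mouse, was not analysed here. Along the cluster the listed levels were thus higher toward Hoxb9, with a dip at Hoxb5. Among Hoxb6, Hoxb7 and Hoxb8 the order turned with the length used, since Hoxb7 was the highest of them per kb but the lowest without length, at 4.38 against 4.82 for Hoxb6 and 5.23 for Hoxb8. Hoxb13, which lies 74009 bases beyond Hoxb9, stood at 0.61 per kb.

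**Figure D2:**
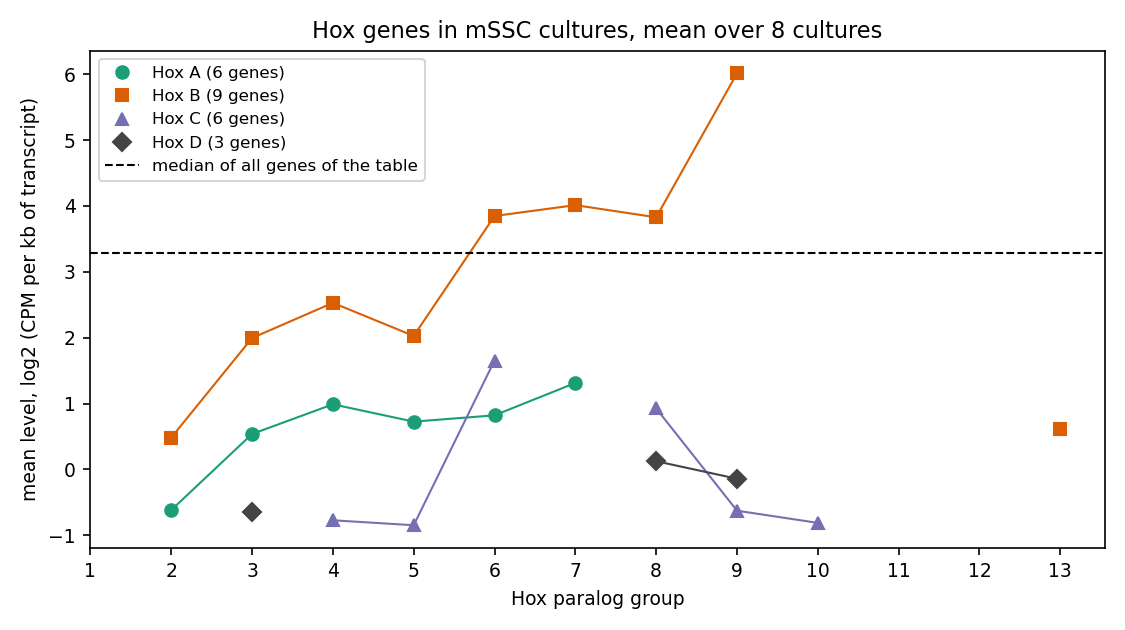
Mean level of Hox genes of the 4 clusters, as log2 of CPM per kb of the longest transcript, against the paralog group from 1 (head) to 13 (tail). Each point is 1 gene averaged over 8 cultures, lines join neighbouring paralog groups of a cluster, and the dashed line is the median of all genes at 3.28; cluster B, from 0.48 at Hoxb2 to 6.01 at Hoxb9, lies above the other clusters wherever they share a paralog group.

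Paralogs, the genes at the same place in different clusters, were unlike in level. Cluster B shared 8 paralog groups with at least 1 other cluster, and its gene was the highest in 8 of 8, by 1.10 to 6.15 on the log2 scale per kb. The widest distance was in paralog group 9, where Hoxb9 was 99.6-fold above Hoxc9 (-0.63 per kb) and 71.2-fold above Hoxd9 (-0.14). Without length Hoxc9 was at 0.62 and Hoxd9 at 0.95, and of genes named below Hoxa6 was at 0.63 and Hoxa2 at 0.21. Folds against such low levels are uncertain, and their error could not be judged. In group 8, Hoxb8 was 7.47-fold above Hoxc8 (0.93 per kb) and above Hoxd8 (0.13) by 3.70 on the log2 scale. Group 6 placed Hoxb6 4.57-fold above Hoxc6 (1.65) and 8.14-fold above Hoxa6 (0.82). Toward cluster A the distance was narrower in groups 2 to 5, with Hoxb2 2.14-fold above Hoxa2 (-0.62 per kb), Hoxb3 2.75-fold above Hoxa3 (0.54), Hoxb4 2.91-fold above Hoxa4 (0.99) and Hoxb5 2.46-fold above Hoxa5 (0.73).

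In cluster A, on chromosome 6, Hoxa7 had 1.31 per kb. Lower levels were listed for Hoxa4 at 0.99, Hoxa6 at 0.82, Hoxa5 at 0.73 and Hoxa3 at 0.54, and Hoxa2 was lowest at -0.62. No gene of cluster A, C or D reached the median of all genes, with or without length. Hoxc6 at 1.65 per kb and Hoxc8 at 0.93 led cluster C on chromosome 15. The other members of that cluster lay close together, with Hoxc9 at -0.63, Hoxc4 at -0.77, Hoxc10 at -0.81 and Hoxc5 at -0.85. For cluster D on chromosome 2, Hoxd8 was at 0.13, Hoxd9 at -0.14 and Hoxd3 at -0.65. By region, 0 of 6 anterior genes (paralog groups 1 to 3), 3 of 14 central genes (4 to 8) and 1 of 5 posterior genes (9 to 13) were above the median per kb.

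The TALE class, which includes partners of Hox proteins, had values for 14 of 17 annotated genes whose symbols match the pattern. Of the 14, 5 were above the median of all genes per kb of the longest transcript. The count was 7 without length and with coding length, and 4 with merged exons. Of the Pbx genes, direct partners of Hox proteins, Pbx2 had 3.52 per kb, Pbx3 2.70 and Pbx4 1.54. Among the Meis genes, whose proteins form complexes with Pbx, Meis2 had 3.94 per kb, Meis3 3.19 and Meis1 2.89. Without length Meis1, at 5.81, was above Meis3, at 4.14, so the order of these genes turned with the length used. Pknox1, a relative of Meis, was 3.95-fold above Pknox2, at 3.03 against 1.05 per kb. The repressor gene Tgif1, known from TGF-beta signaling, was the highest of the class at 4.63 per kb of the longest transcript, and Tgif2 had 2.09. This lead turned with the length used. With merged exons Irx1, at 4.17, was above Tgif1, at 3.79, and without length Meis2, at 6.40, was above Tgif1, at 6.28. Of the Iroquois genes, patterning factors of the embryo, Irx1 had 4.31 per kb, Irx5 2.36 and Irx2 2.01.

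Genes known for the spleen were among the higher members per kb, but less so without length, where Nkx3-2 had rank 24 and Nkx2-5 rank 35 of the 69 members and Nkx2-3 was the only one of these genes above the median of all genes. Nkx2-3, on chromosome 19 from 43612325 to 43615892 (plus strand), had 5.45 per kb, or 92.4 CPM without length. Tlx1, without which mice form no spleen, lies on the same chromosome from 45150680 to 45156943 (plus strand) and had 3.77 per kb. Nkx3-2 (chromosome 5, 41761483 to 41764501, minus strand) had 3.41, and Nkx2-5 (chromosome 17, 26838664 to 26845009, minus strand) had 2.97. Nkx2-3 was thus 3.20-fold above Tlx1 and 5.60-fold above Nkx2-5. The first 3 of these genes were the only ones of the 8 NK-like members above the median per kb. Barx1, also known from spleen development, was not analysed here. The remaining NK-like genes were low. Hlx, a factor of visceral mesenchyme, had 1.38 per kb, Dlx2 1.34 and Dlx1 0.38, and Msx2, a gene of skull and limb development, had -1.32 per kb and -0.03 without length.

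Of the paired-type genes, Prrx1, a factor of limb and facial mesenchyme also found in fibroblasts, was at 4.29 per kb and 3.25-fold above its relative Prrx2 (2.59). Six4 and Six5, relatives of a fly eye gene, had 0.84 and 2.34 per kb. The LIM genes Lhx9 and Lhx6 had -0.04 and -0.41 per kb. All 10 annotated zinc finger homeobox genes whose symbols match the pattern had a row. Zeb1, a repressor known from epithelial-mesenchymal transition, was highest at 3.72 per kb and its relative Zeb2 had 2.38. Zhx1 had 2.83, Zhx2 2.53, Zfhx3 2.01, Zhx3 0.73, Zfhx2 0.25, Zfhx4 0.21 and Homez 0.10. These genes have long transcripts, and without length 4 of the 10 were above the median of all genes, against 1 per kb. In the CUT class, Cux1 had 3.01 per kb, and the chromatin organizer Satb1 had 2.21. Hmbox1, a telomere-binding protein, had 3.40.

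Some members share exons with other annotated genes, and reads from shared bases can be left uncounted or be given to the partner gene. Of the 69 members, 42 shared no exon base with another gene. On the same strand 13 members shared bases, and on the opposite strand 20 did. For 4 members the share passed 50%. Adnp, a chromatin factor, shared 82.1% of its merged exon bases with the gene model Gm20716 on the same strand, and it was the lowest member at -1.52 per kb. Its reads could not be counted again, and the same level divided by the length of its unshared exon bases gave 0.85. For Hoxd3 the share was 62.3%, with Hoxd4 and the gene model Gm28230, and its level of -0.65 per kb became 0.27 when divided by the unshared length instead. Tgif2 shared 61.6% and Hoxb3 52.9% with genes on the opposite strand. The partner of Hoxb3, the antisense RNA gene Hoxb3os, was itself listed at 2.36 per kb. Hoxb2 also shared 27.3% of its exon bases with it. The library kit marked the strand, but whether the counting used it is not given in the sources used here, so reads of Hoxb3os and of either Hox gene cannot be told apart. The part of shared exons in the levels was not tested.

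**Figure D3:**
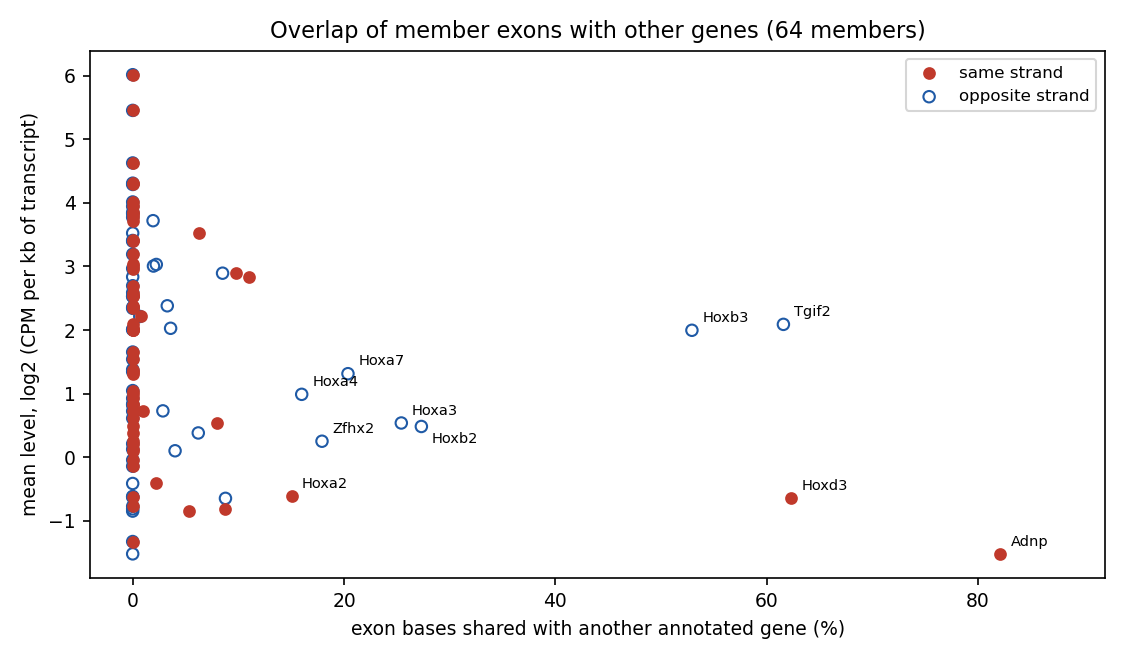
Share of a member's merged exon bases that lie in exons of another annotated gene, in percent on the x axis, against its level as log2 of CPM per kb of the longest transcript. Each of 64 of the 69 genes gives a filled point for the same strand and an open circle for the opposite strand, names are given above 14% shared; Adnp at 82.1% and -1.52 per kb and Hoxd3 at 62.3% and -0.65 lie at the lower right.

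Because BMS493 acts on the RA receptors, the promoters were searched for their paired binding element. RefSeq promoter windows on GRCm38.p6, from 250 bases before to 50 bases after an annotated start, were available for 41 members, among them 11 Hox genes. Some genes have several starts, which gave 55 windows, and a gene was counted if any of its windows matched. The search asked for a pair of the hexamers AGGTCA or GGTTCA in the same direction, with 1, 2 or 5 bases between them, on both strands. No member window held it with every base matched (0 of 41), and 5 of the 8842 genes of the table with a window did, or 0.0565%. With 1 mismatch over both hexamers it was found in 2 members, or 4.88%, against 1.69% of all genes. The members were Hoxd3 and Hoxc4, and their matches are printed to show the letters. Both genes were low, at -0.65 and -0.77 per kb. The Hoxc4 window, from 103034145 to 103034444, lies within the GENCODE gene, which starts at 103018934, and not at its first base. The capitals mark the near match, which reads on the strand opposite to the gene.
Hoxd3, 5 bases between the hexamers, plus strand, chr2:74711801-74711857: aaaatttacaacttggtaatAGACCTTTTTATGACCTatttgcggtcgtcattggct
Hoxc4, 1 base between the hexamers, plus strand, chr15:103034222-103034274: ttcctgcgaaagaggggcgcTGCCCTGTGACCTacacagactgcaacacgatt
A match of letters is a description of the window and not a site of binding, and elements outside the window were not searched. The median GC content was 60.3% for the members and 61.3% for all genes with a window, and the median ratio of observed to expected CpG was 0.666 against 0.766.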

How the data were processed

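RNA-seq libraries of 4 DMSO and 4 BMS493 cultures, grouped by their titles, were analysed. According to the methods and the submitters' processing notes, reads were checked with FastQC and aligned to mm10 with STAR 2.3.0e. The authors took reads with a unique position, obtained gene counts with Rsubread from Ensembl 85 models and normalized with a weighted trimmed mean of M-values. The deposited table gives the authors' mean log2 expression over all samples, with decimal commas. Its other columns hold the authors' own comparison (log2 fold change, t, p and adjusted p) and were not used. With 1 value per gene, no test was run and the planned limma fit could not be made.

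Symbols were matched to GENCODE M21 (GRCm38, the assembly also named mm10) for 98.4% of rows and for all 69 members. Lengths were those of the longest transcript, with merged exons and coding length as alternatives. Promoters came from RefSeq, coding stretches from GENCODE M21 transcripts. Position 50 was taken as the residue after tryptophan and phenylalanine. The search for paired elements was tried on simulated windows with planted elements in which every base matched. No element with a mismatch was planted, so the search with 1 mismatch was not tested on such an element. For the level per kb, the simulated check only undid its own addition of length, so it could not fail. Python 3.11.15, numpy 2.4.6, pandas 2.3.3, scipy 1.17.1 and matplotlib 3.10.9 were used. The study states an average sequencing depth but none per library, and no interval is given for a level.

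The members and lists were chosen with earlier results of these data known. Every member with a row could be named, though some genes are not reported here, with values in full for Hox, TALE and spleen genes and for the extremes of other classes. The planned comparison of protein lengths and identities was not run, as no protein table was used.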

Additional observations from a re-analysis of the deposited data

How the results depend on the processing

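With merged exons in place of the longest transcript, the counts of members above the median of all genes stayed within 1.5 times for each class of at least 3 members and for the anterior, central and posterior Hox genes. Without length the count was 2 for cluster B in place of 4, 1 for NK-like genes in place of 3, 4 for zinc finger genes in place of 1, 1 for the CUT class in place of 0 and 1 for central Hox genes in place of 3. With coding length the zinc finger count was 0. Cluster B made up 84.7 to 86.9% of the summed Hox level over 3 length settings, and it was highest in 8 of 8 shared paralog groups under all 4. Hoxb9 was the highest member under all 4. Tgif1 moved from rank 3 to rank 6 with merged exons, and the level per kb of 19 of 69 members moved by over 1.5-fold. Which members passed percentile 75 of all genes also turned with the length used. With merged exons Tgif1 was at percentile 68.9, and without length Prrx1 (percentile 86.5) and Cux1 (82.4) were among those above 75. The division by unshared exon length was chosen after seeing the data. The share of members above the median was 25.9% among rows with a log2 level of at least 1. Allowing 1 mismatch gave 2 members with a paired element in place of 0. No paired analysis was possible because only a mean over all cultures was used, and for that reason leaving out a culture was not run. The study gives sequencing depth as an average over samples and not per library, so no interval was given for low levels such as that of Msx2.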

Other observations

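Genes that are known to act on Hox clusters were read from the same table, as levels with no test. Of 6 retinoid receptor genes 5 had a row. Rarg was highest at 4.94 per kb, followed by Rxrb at 4.32, Rara at 4.15 and Rxra at 3.66, and these 4 were above the median of all genes. Rarb, itself a classical target of RA, was listed at -2.13 per kb, percentile 0.565 of all genes, and at -0.49 without length. All 18 Polycomb genes, whose proteins keep Hox clusters silent, had a row, and 11 were above the median. The catalytic subunit gene Ezh2 had 4.79 per kb against 2.71 for Ezh1, and Cbx7 was lowest at -0.15. Of 11 genes of the trithorax and MLL group, which act in the opposite sense, 7 had a row. Of these, 5 were above the median, among them Ash2l at 4.87 and Men1 at 4.62. The MLL genes Kmt2a, Kmt2b, Kmt2c and Kmt2d had no row under the symbols searched, and nothing is drawn from this. Of 7 symbols searched for spleen transcription factors outside the homeobox families, 5 had a row, and 2 of these were above the median. Nr2f2 had 4.80 per kb, Gata6 4.69, Wt1 3.01, Gata4 1.85 and Nr2f1 0.70. Tcf21 and its other name Pod1 had no row.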
